A study of Homo sapiens with 3 samples.

Results

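The comparison described here set siADAR1 #1 directly against siADAR1 #2, a pair of independent small interfering RNAs (siRNAs) that lower the mRNA of ADAR, the gene of the RNA-editing enzyme ADAR1, in Cal62 cells. Its members were chosen by their labels and by no measured value: 2 of the 3 samples of the study, with 2 biological replicates each, or 4 of its 6 RNA-seq libraries. Cal62 is an established human thyroid tumor cell line, and all libraries came from cells transfected with 1 of these siRNAs or with a non-targeting control siRNA (siControl) by lipofection. The study used both siRNAs as independent reductions of the same gene, in 1 cell line, and the 2 siControl libraries served here to say on which side of the control each gene lay. The question addressed was which genes and processes separated the siRNAs.

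ADAR1 converts adenosine to inosine in double-stranded RNA, and this editing is known to keep endogenous double-stranded RNA from being taken for foreign RNA by sensors that start the interferon response. An siRNA directs the Argonaute complex to transcripts that pair with it. Against the same mRNA, different siRNAs have different sequences, so the target is what they are designed to share.

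The libraries held 30114840 to 50029763 reads assigned to genes. Values are given as normalized counts (reads divided by the authors' factor for the depth of each library) in replicate 1 and then replicate 2. Differences are on the deposited log2 scale, which runs flatter than log2 of the count for genes with few reads, and each is given with its standard error (SE). A gene was called when its adjusted p was under 0.05 and its log2 difference was beyond 0.5, in the limma fit of the 3 groups over 20858 genes. ADAR itself had 1328 and 2246 normalized counts with siADAR1 #1, 1663 and 2928 with siADAR1 #2 and 10906 and 11701 with siControl. It lay below both siControl libraries in all 4 siADAR1 libraries, and the siRNAs did not differ by a call: log2 difference of 0.35 ± 0.30 (SE), adjusted p = 0.404. Replicate 2 was the higher with either siRNA, and as each library was left out the difference ran from -0.05, without replicate 2 of siADAR1 #2, to 0.76, without its replicate 1. It was -0.03 without replicate 1 of siADAR1 #1.

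Many genes separated the siRNAs. Of the 20858 genes tested, 6838 (32.8%) were called between them, 3488 (16.7%) higher with siADAR1 #2 and 3350 (16.1%) higher with siADAR1 #1. The libraries of the siRNAs did not overlap for any of these 6838 genes, while ranges that do not overlap were found for 69.3% of all genes tested. The median size of a called difference was 1.10 on the log2 scale, and 3943 genes differed by more than 1. Against siControl, siADAR1 #1 raised 1290 genes (6.18%) and lowered 2212 (10.6%), and siADAR1 #2 raised 2309 (11.1%) and lowered 3232 (15.5%). These comparisons share the siControl libraries. Against 3502 calls with siADAR1 #1 in all libraries, 392 genes were called without siControl replicate 1, 1248 without siControl replicate 2 and 1412 without replicate 1 of siADAR1 #1. Against 5541 with siADAR1 #2, 3150 were called without siControl replicate 1 and 3242 without replicate 1 of siADAR1 #2. Centring each library on its median moved the median difference of all genes between the siRNAs from 0.00 to -0.13 and the split of the calls to 2854 higher with siADAR1 #2 and 4274 higher with siADAR1 #1, so directions of lists with a median near 0 depend on the scaling. Without replicate 1 of siADAR1 #2, 2326 genes were higher with siADAR1 #2 and 2484 with siADAR1 #1.

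The genes were then placed by side of siControl. Here and below, a rise or fall with 1 siRNA alone means that only that siRNA was called against siControl. The other siRNA may lie on the same side without a call. Of the 6838 genes, 3059 (44.7%) were called against siControl with siADAR1 #2 alone: 1765 lower and 1294 higher. With siADAR1 #1 alone there were 1515 (22.2%), 976 lower and 539 higher. Opposite sides of siControl were called for 324 genes (4.74%), 135 of them above siControl with siADAR1 #1 and below it with siADAR1 #2, and 189 the other way. Another 227 genes (3.32%) lay on the same side with both and still differed (357 with the replicate number as a block), and 1713 (25.1%) were called against siControl with neither siRNA. Without any call, both siControl libraries lay between the siRNAs for 2838 genes (41.5%), above both for 888 (13%) and below both for 424 (6.20%). These classes rest on the siControl libraries: without siControl replicate 1 the opposite sides held 29 genes, siADAR1 #1 alone 229 and neither siRNA 3801, and without siControl replicate 2 they held 60, 675 and 3048. Genes on the same side numbered 32 and 81 in these fits. Without replicate 1 of siADAR1 #1, opposite sides held 135 genes, the same side 91 and siADAR1 #1 alone 624, and without replicate 1 of siADAR1 #2 opposite sides held 184, the same side 118 and siADAR1 #2 alone 1773.

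**Figure D1:**
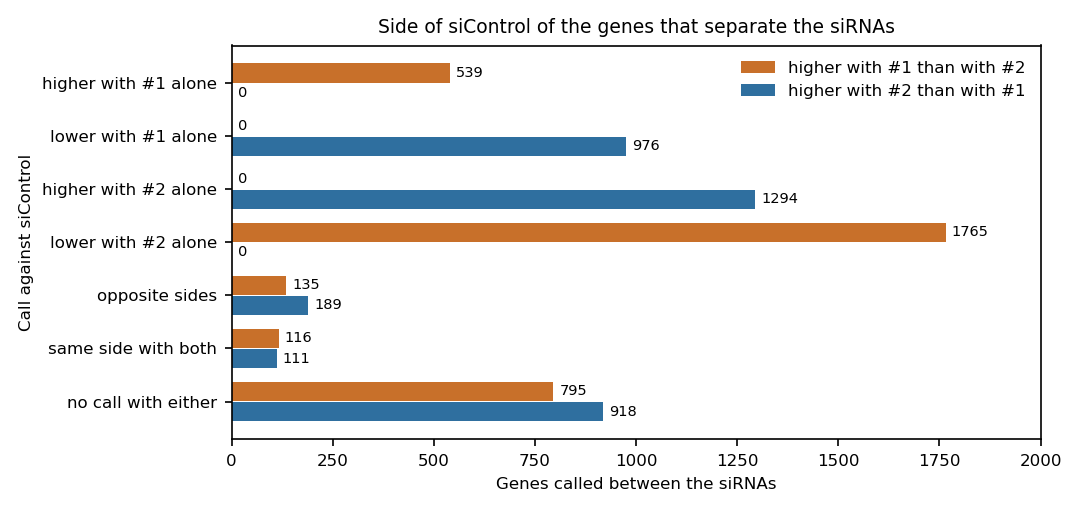
Number of genes called between the siRNAs (horizontal axis) by their call against siControl (vertical axis), in orange for genes higher with siADAR1 #1 and in blue for genes higher with siADAR1 #2. The longest bar is the 1765 genes lower than siControl with siADAR1 #2 alone, and opposite sides hold 135 and 189 genes.

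Some of these classes differed in GC content and in which replicate departed most. Genes lower with siADAR1 #1 alone had a median GC content of 51.6%, those lower with siADAR1 #2 alone 45.4%, and all genes tested 47.6%. Among the 4142 genes richest in GC (56.8% to 83.9%), 24.9% were higher with siADAR1 #2 and 13.3% higher with siADAR1 #1, and among the 4142 poorest 12.5% and 19.2%. Of the 976 genes lower with siADAR1 #1 alone, 809 (82.9%) were lower in its replicate 1 than in its replicate 2, against 54.8% of all genes. Of the 1765 genes lower with siADAR1 #2 alone, 1391 (78.8%) were lower in its replicate 1, against 51.3% of all genes. What part GC content and the replicate have in the classes was not tested, and with the trend of each library on GC content and gene length removed, 3420 genes were higher with siADAR1 #2 and 3311 with siADAR1 #1.

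Among protein-coding genes higher with siADAR1 #1, those with the largest differences included secreted proteins, the histone gene H2BC11 and a ribosome assembly factor. IL11, a cytokine of the interleukin-6 family, had 659 and 695 with siADAR1 #1, 17 and 36.6 with siADAR1 #2 and 82.8 and 114 with siControl. The siADAR1 #1 libraries lay above and the siADAR1 #2 libraries below both siControl libraries, with a log2 difference of -4.62 ± 0.36 (SE), adjusted p = 0.000186. NSA2, a factor of 60S ribosome assembly, was at 9613 and 9736 with siADAR1 #1, 544 and 669 with siADAR1 #2 and 8568 and 7572 with siControl. It fell with siADAR1 #2 alone: the siADAR1 #1 libraries lay above siControl without a call (log2 0.26), and the log2 difference between the siRNAs was -4.0 ± 0.14 (SE), adjusted p = 1.99e-05. CTHRC1, a secreted protein of the extracellular matrix, behaved alike, at 1884 and 1736 with siADAR1 #1, 77.1 and 120.1 with siADAR1 #2 and 1934 and 1462 with siControl. Its log2 difference was -4.20 ± 0.24 (SE), adjusted p = 0.000109, and only siADAR1 #2 was called against siControl (log2 -4.09). G0S2, an inhibitor of the lipase that breaks down stored triglyceride, was below siControl in all 4 libraries and lowest with siADAR1 #2, at 3209 and 10472 with siADAR1 #1, 108 and 627 with siADAR1 #2 and 16024 and 15749 with siControl, with a log2 difference of -4.46 ± 0.77 (SE), adjusted p = 0.00331. Only siADAR1 #2 was called against siControl. ANO1, a calcium-activated chloride channel, had the same order, and likewise only siADAR1 #2 was called against siControl (log2 difference of -3.62 ± 0.30 (SE), adjusted p = 0.000217 between the siRNAs).

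The rest of the 12 largest differences in this direction were H2BC11, CA2, MATN3, HES7, MUC12, CSF2 and BIRC3. CA2, a carbonic anhydrase, had 311 and 273 with siADAR1 #1, 14.7 and 24.9 with siADAR1 #2 and 122 and 119 with siControl, with the siControl libraries between the siRNAs, and its log2 difference was -3.76 ± 0.30 (SE), adjusted p = 0.000199. MATN3, a matrilin of the cartilage matrix, had 297 and 247 with siADAR1 #1, 13.6 and 24.9 with siADAR1 #2 and 61 and 94.9 with siControl (log2 difference of -3.71 ± 0.36 (SE), adjusted p = 0.000361). HES7 encodes a transcriptional repressor of the Notch pathway, and it fell below siControl with siADAR1 #2 alone (log2 difference of -3.64 ± 0.62 (SE), adjusted p = 0.00314). CSF2, a growth factor of granulocytes and macrophages, was at 156 and 1617 with siADAR1 #1, 5.67 and 107 with siADAR1 #2 and 40.3 and 127 with siControl, so replicate 2 was the higher in each group. BIRC3, an inhibitor of apoptosis and target of NF-kappaB, had the same order, at 1796 and 11580.4 with siADAR1 #1, 215 and 722 with siADAR1 #2 and 463 and 1457 with siControl. The log2 difference was -4.10 ± 1.354 (SE), adjusted p = 0.0469, for CSF2 and -3.52 ± 0.915 (SE), adjusted p = 0.0188, for BIRC3. Both genes were called against siControl with neither siRNA. MUC12, a transmembrane mucin, was at 236 and 244 with siADAR1 #1, 38.6 and 0 with siADAR1 #2 and 96.9 and 84.7 with siControl, and called against siControl with neither siRNA.

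**Figure D2:**
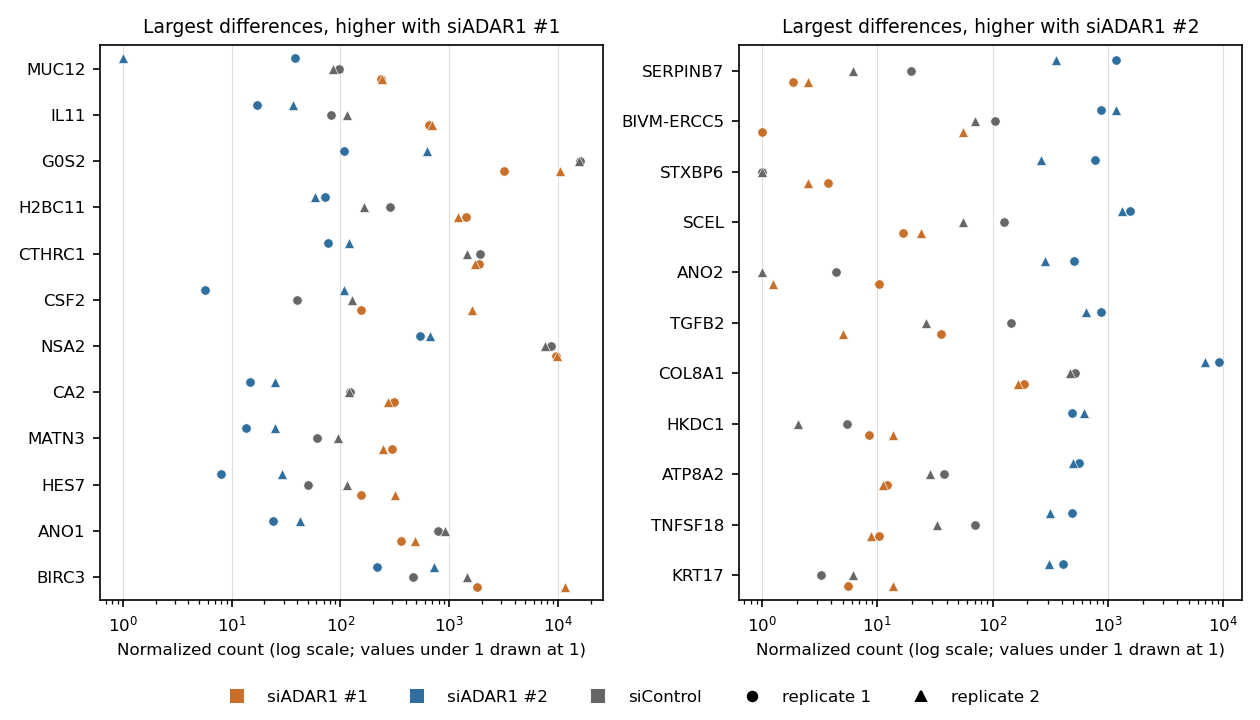
Normalized count on a log axis of 12 protein-coding genes with the largest differences higher with siADAR1 #1 and 11 higher with siADAR1 #2, with 1 point per library (orange siADAR1 #1, blue siADAR1 #2, grey siControl; circles replicate 1, triangles replicate 2). Orange and blue points do not overlap for any gene; NSA2 and CTHRC1 have grey beside orange, while COL8A1 and SCEL have grey between orange and blue.

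Among genes higher with siADAR1 #2, the largest differences included genes of epithelial and matrix proteins, several of them near the detection limit with siADAR1 #1. SERPINB7, a serine protease inhibitor of epithelia, had 1.87 and 2.51 with siADAR1 #1, 1184 and 357 with siADAR1 #2 and 19.6 and 6.12 with siControl. The siADAR1 #1 values are those of 2 reads in each library, so the counting error on any fold is large (adjusted p = 0.000261 between the siRNAs). COL8A1, a short-chain collagen of the vessel wall and cornea, was measured with many reads, at 186 and 165 with siADAR1 #1, 9212 and 6940.1 with siADAR1 #2 and 522 and 466 with siControl. Both siControl libraries lay between the siRNAs, siADAR1 #1 fell (log2 -1.48), siADAR1 #2 rose (log2 4.01), with a log2 difference of 5.49 ± 0.18 (SE), adjusted p = 1.99e-05 between them. SCEL, sciellin of the cornified envelope, had the same order, at 16.8 and 23.9 with siADAR1 #1, 1548 and 1318 with siADAR1 #2 and 126 and 55.1 with siControl (log2 difference of 5.99 ± 0.39 (SE), adjusted p = 0.000143). KRT17, a keratin of basal epithelia with closely similar pseudogenes that may share its reads, was at 5.61 and 13.8 with siADAR1 #1, 408 and 311 with siADAR1 #2 and 3.27 and 6.12 with siControl (log2 difference of 4.98 ± 0.45 (SE), adjusted p = 0.00028).

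TGFB2, a ligand of the TGF-beta receptors, was at 35.5 and 5.02 with siADAR1 #1, 875 and 652 with siADAR1 #2 and 144 and 26.5 with siControl, and rose above siControl with siADAR1 #2 alone (log2 difference of 5.50 ± 0.88 (SE), adjusted p = 0.00233). HKDC1, a hexokinase, was at 8.42 and 13.8 with siADAR1 #1, 485 and 621 with siADAR1 #2 and 5.44 and 2.04 with siControl. It rose with siADAR1 #2 alone, with adjusted p = 0.000186 between the siRNAs. ATP8A2, a phospholipid flippase, and TNFSF18, the ligand of the receptor GITR, were called on opposite sides of siControl. ATP8A2 was at 12.2 and 11.3 with siADAR1 #1, 560.2 and 497 with siADAR1 #2 and 38.1 and 28.6 with siControl. TNFSF18 was at 10.3 and 8.79 with siADAR1 #1, 485 and 313 with siADAR1 #2 and 69.7 and 32.6 with siControl. ANO2, a chloride channel of the family of ANO1, rose with siADAR1 #2 (log2 difference of 5.89 ± 0.87 (SE), adjusted p = 0.00169), so these paralogs were called in opposite directions between the siRNAs. STXBP6, a syntaxin-binding protein, was listed at 0 in both siControl libraries, at 3.74 and 2.51 with siADAR1 #1 and at 772 and 265 with siADAR1 #2. BIVM-ERCC5 is a read-through gene that shares its sequence with BIVM and ERCC5, so its count (0 and 55.3 with siADAR1 #1 and 875 and 1185 with siADAR1 #2) is uncertain.

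Of the 324 genes on opposite sides of siControl, 271 were protein-coding with a mean of at least 100 normalized counts in the siADAR1 libraries. Among the largest differences above siControl with siADAR1 #1 and below it with siADAR1 #2 were IL11, H2BC11, CA2 and MATN3. The other direction was led by SCEL, COL8A1, ATP8A2, TNFSF18 and DKK2, an antagonist of Wnt receptors. DKK2 was at 6.55 and 6.28 with siADAR1 #1, 208 and 201 with siADAR1 #2 and 94.7 and 26.5 with siControl (log2 difference of 4.56 ± 0.53 (SE), adjusted p = 0.000617). For each of these 9 genes both siControl libraries lay between the siRNAs.

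Of 3983 long noncoding genes tested, 500 (12.6%) were higher with siADAR1 #2 and 270 (6.78%) higher with siADAR1 #1, while of 14372 protein-coding genes 2754 (19.2%) and 2897 (20.2%) were. The largest in the first direction were ENSG00000248112, PLCE1-AS1 and ENSG00000260604. ENSG00000248112 was at 0.935 and 0 with siADAR1 #1 and at 304 and 311 with siADAR1 #2. PLCE1-AS1, antisense to PLCE1, was at 767 and 267 with siADAR1 #2 and at 4.68 and 0 with siADAR1 #1; reads of antisense partners cannot be told apart if strand was not used in counting. In the second direction, H1-10-AS1 was the steadiest (log2 difference of -2.46 ± 0.33 (SE), adjusted p = 0.00113), while ENSG00000276077 and ENSG00000242539 had no read in replicate 2 of siADAR1 #2.

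Lysosome and autophagy genes were the list most often higher with siADAR1 #2. Lysosomes break down material with acid hydrolases, a proton pump (the V-ATPase) keeps them acid, and the transcription factors TFEB and TFE3 switch on many of their genes through a palindromic promoter element called CLEAR. Of 49 members tested, 28 (57.1%) were higher with siADAR1 #2 and 5 (10.2%) higher with siADAR1 #1, with a median difference of 0.62 against 0.00 for all genes. As each library was left out, 24 to 28 members were higher with siADAR1 #2 and the median ran from 0.61 to 0.65. Against siControl, siADAR1 #2 raised 26 members and lowered 5, and siADAR1 #1 raised 6 and lowered 4.

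HEXA, a subunit of beta-hexosaminidase, had 2491 and 2664 with siADAR1 #1, 9237 and 8153 with siADAR1 #2 and 3045 and 2886 with siControl. Both siADAR1 #2 libraries lay above all others, with a log2 difference of 1.75 ± 0.12 (SE), adjusted p = 0.000144. NAGLU, which degrades heparan sulfate, was at 211 and 281 with siADAR1 #1, 1425 and 1397 with siADAR1 #2 and 443 and 524 with siControl, below siControl with siADAR1 #1 and above it with siADAR1 #2 (log2 difference of 2.52 ± 0.19 (SE), adjusted p = 0.000178). TFE3, named here after its values were seen, also lay on opposite sides, at 1302 and 2306 with siADAR1 #1, 7400.1 and 6836 with siADAR1 #2 and 3784 and 3749 with siControl (log2 difference of 2.04 ± 0.23 (SE), adjusted p = 0.000617). The proton pump subunit ATP6V0D1 (1.48 ± 0.14), the membrane protein LAMP1 (1.13 ± 0.11), the proteases CTSA (1.11 ± 0.10) and CTSD (1.03 ± 0.10) and the autophagosome protein GABARAP (1.19 ± 0.14) rose with siADAR1 #2 alone. Not all members had this direction. The proteases CTSB and CTSZ were called the other way, with log2 differences of -1.30 and -1.17. CTSB was at 16511 and 18739 with siADAR1 #1, 6245 and 8149.99 with siADAR1 #2 and 18399 and 17129 with siControl. CTSZ, on opposite sides of siControl, was at 61134 and 52854 with siADAR1 #1, 23875 and 26589 with siADAR1 #2 and 44536 and 34890.2 with siControl. The protease CTSL and the autophagy genes ATG3 and ATG16L1 were also higher with siADAR1 #1.

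**Figure D3:**
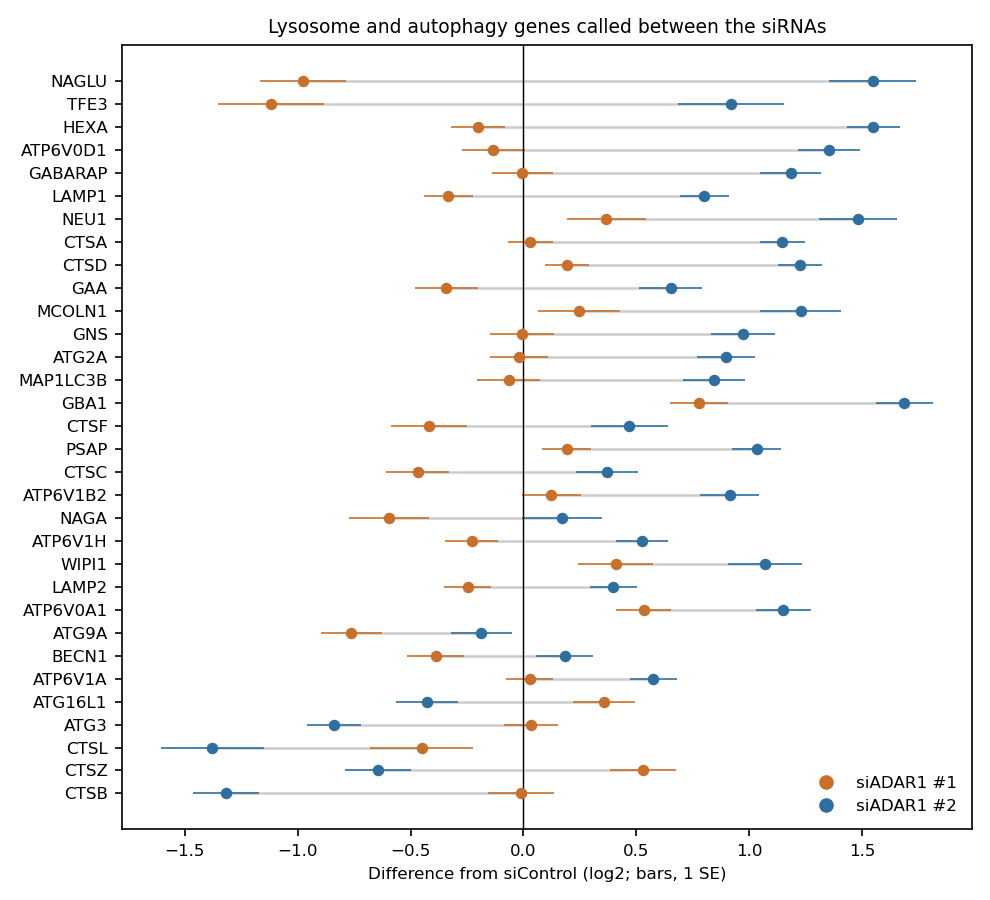
Log2 difference from siControl of 32 lysosome and autophagy genes called between the siRNAs, in orange for siADAR1 #1 and in blue for siADAR1 #2 (bars, 1 SE; each value from 2 libraries against the same 2 siControl libraries). Blue lies to the right of orange for 27 genes, and NAGLU, TFE3 and, in the other order, CTSZ span the line of siControl with both points called.

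The letters TCACGTGA, the core of the CLEAR element and its own reverse complement, were searched in promoters of RefSeq on GRCh38.p14, from 250 bases before to 50 after the start of each gene. The search was made after the values were seen. They stood in 283 of 27305 promoters (1.04%), in 220 of 12785 promoters of genes tested (1.72%), in 65 of 2436 promoters of genes higher with siADAR1 #2 (2.67%), in 33 of 2427 of genes higher with siADAR1 #1 (1.36%) and in 6 of the 35 lysosome and autophagy genes with a promoter in the table (17.1%). Among that list they stood in 5 of 17 genes called higher with siADAR1 #2 (29.4%), in 1 of 4 called higher with siADAR1 #1 (ATG3) and in 0 of 14 not called, so genes of both directions held them. A match is a description of the letters and no evidence of binding. A match of each of the 5 genes called higher with siADAR1 #2 is shown in 30 bases, with the element in capitals. That of ATG3, called higher with siADAR1 #1, is not shown.
LAMP1 (chr13:113297199-113297228, + strand): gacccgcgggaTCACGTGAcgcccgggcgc
CTSA (chr20:45891298-45891327, + strand): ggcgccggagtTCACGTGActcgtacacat
GAA (chr17:80101493-80101522, + strand): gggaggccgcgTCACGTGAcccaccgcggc
MCOLN1 (chr19:7522571-7522600, + strand): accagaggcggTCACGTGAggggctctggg
ATP6V0D1 (chr16:67481199-67481228, - strand): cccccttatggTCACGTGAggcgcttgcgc

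All of these stretches lie before the start of the gene. GAA, the acid alpha-glucosidase, holds a further match nearer to its start, and it rose with siADAR1 #2 alone. MCOLN1, a calcium channel of the lysosome membrane, had 500.3 and 432 with siADAR1 #1, 1034 and 817 with siADAR1 #2 and 385 and 398 with siControl, with siADAR1 #2 above all other libraries (log2 difference of 0.98 ± 0.18 (SE), adjusted p = 0.00426).

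Genes of DNA replication and mitosis separated the siRNAs in the other direction, and here both siRNAs lay below siControl by their medians. Replication begins with the licensing of origins by the MCM helicase, and mitosis is run by kinases, kinesins and the kinetochore. Of 56 replication genes, 23 (41.1%) were higher with siADAR1 #1 and 0 with siADAR1 #2 (1 at an unadjusted p under 0.05, and 0 by voom), with a median difference of -0.39. Against siControl, 30 were lowered with siADAR1 #1 (median -0.59) and 49 with siADAR1 #2 (median -1.03). Of 60 mitotic kinases, kinesins and regulators, 30 (50%) were higher with siADAR1 #1 and 1 with siADAR1 #2 (median -0.49), and 24 and 56 were lowered against siControl. The replication count ran from 15, without replicate 1 of siADAR1 #2, to 28 as each library was left out, and the mitotic count from 25 to 34.

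RPA2, a subunit of the single-strand binding protein RPA, had 3908 and 4044 with siADAR1 #1, 1522 and 1516 with siADAR1 #2 and 4466 and 4044 with siControl. The siADAR1 #1 libraries lay at or just below siControl and both siADAR1 #2 libraries far below (log2 difference of -1.39 ± 0.11 (SE), adjusted p = 0.000219). MCM10, which joins the helicase to the polymerase, was at 4059 and 4036 with siADAR1 #1, 1759 and 1709 with siADAR1 #2 and 4593 and 4693 with siControl (log2 difference of -1.22 ± 0.11 (SE), adjusted p = 0.000259). PRC1, which bundles microtubules of the central spindle, was at 14483 and 15047 with siADAR1 #1, 3359.9 and 4743 with siADAR1 #2 and 21313 and 17329 with siControl (log2 difference of -1.89 ± 0.18 (SE), adjusted p = 0.000322). The spindle checkpoint kinase TTK fell with siADAR1 #2 alone (log2 difference of -1.31 ± 0.15 (SE), adjusted p = 0.000579). The same order held for SKA3 (-1.57 ± 0.12) and CENPO (-1.40 ± 0.12) of the kinetochore list, where 15 of 38 members were higher with siADAR1 #1 and 1, CENPP, higher with siADAR1 #2. It held for the condensin subunit NCAPH (-1.56 ± 0.14), with 12 of 24 cohesin and condensin genes higher with siADAR1 #1 and 1, the cohesin loader NIPBL (0.62 ± 0.11), higher with siADAR1 #2. Of 39 genes of homologous recombination and the Fanconi anemia pathway, 20 were higher with siADAR1 #1, led by RMI2 (-1.64 ± 0.19), and 4 with siADAR1 #2, led by RAD50. RAD50 was at 1723 and 2159 with siADAR1 #1, 4431 and 4596 with siADAR1 #2 and 4304 and 4029.9 with siControl, so it fell with siADAR1 #1 alone. The count of 20 was 12 without replicate 1 of siADAR1 #2 and 13 without replicate 2 of siADAR1 #1.

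Cyclins and CDK inhibitors of interphase were mixed, with 9 of 25 higher with siADAR1 #1 and 5 with siADAR1 #2 (3 without its replicate 1). CCND1, cyclin D1, was at 40949 and 36429 with siADAR1 #1, 17211 and 18217 with siADAR1 #2 and 43376 and 40136 with siControl. RB1, the retinoblastoma protein that restrains E2F factors, was at 6686 and 6359 with siADAR1 #1, 2339 and 2620.5 with siADAR1 #2 and 7346 and 6219.8 with siControl. Both fell with siADAR1 #2 alone. The CDK inhibitors CDKN2D and CDKN2C were called the other way. CDKN2D rose with siADAR1 #2 alone (154 and 196 with siADAR1 #1, 911 and 759 with siADAR1 #2 and 278 and 278 with siControl), and CDKN2C fell with siADAR1 #1 alone (531 and 602 with siADAR1 #1, 1575 and 1499.9 with siADAR1 #2 and 1978 and 1526 with siControl).

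E2F factors drive many replication genes. The letters TTTGGCGC and TTTCCCGC, on both strands, stood in 631 of the 27305 promoters (2.31%) and in 18 of 48 replication genes with a promoter in the table (37.5%). Among the replication genes they stood in 9 of 18 called higher with siADAR1 #1 and in 9 of 30 not called, so genes with and without a call between the siRNAs held them. Over all genes tested they stood in 3.43% of promoters, in 4.0% for genes higher with siADAR1 #1 and in 3.08% for genes higher with siADAR1 #2. These letters were also chosen after the values were seen. Stretches of 4 of the called genes are shown, with the match in capitals.
MCM3 (chr6:52284898-52284927, - strand): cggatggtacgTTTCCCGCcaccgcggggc
MCM7 (chr7:100101566-100101595, - strand): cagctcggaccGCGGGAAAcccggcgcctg
GINS2 (chr16:85688967-85688996, - strand): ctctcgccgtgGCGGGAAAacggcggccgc
RFC3 (chr13:33818083-33818112, + strand): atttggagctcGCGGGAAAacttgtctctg

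GCGGGAAA in these stretches is TTTCCCGC read on the other strand. The letters TTTGAA of the CHR element, known from mitotic promoters, stood in 34 of 51 mitotic genes with a promoter in the table (66.7%) against 4212 of 27305 promoters (15.4%), in 16 of 26 called higher with siADAR1 #1 and in 17 of 24 not called. Over all genes tested they stood in 10.1% of promoters, in 9.44% for genes higher with siADAR1 #1 and in 9.28% for genes higher with siADAR1 #2.

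Canonical histone genes had the lowest median of the lists. They encode the histones made during S phase, most of whose mRNA has no poly(A) tail, so libraries of poly(A) RNA hold only a part of it, and their near-identical copies may share reads. Of 33 tested, 12 (36.4%) were higher with siADAR1 #1 and 0 with siADAR1 #2 (0 also at an unadjusted p under 0.05 and by voom), with a median difference of -0.93. Unlike the replication genes they rose with siADAR1 #1: 12 were called above siControl (median 0.75), and with siADAR1 #2 3 were above and 4 below (median -0.43). H2BC11 was at 1419.6 and 1199.6 with siADAR1 #1, 71.4 and 58.6 with siADAR1 #2 and 289 and 165 with siControl (log2 difference of -4.28 ± 0.28 (SE), adjusted p = 0.000144). H2BC4 was at 1118 and 742 with siADAR1 #1, 168 and 132 with siADAR1 #2 and 188 and 99.96 with siControl, with siADAR1 #2 overlapping siControl (log2 difference of -2.60 ± 0.34 (SE), adjusted p = 0.000988). The siControl replicates differed by a median of 0.75 over these genes, higher in replicate 1. The count was 7 without replicate 1 of siADAR1 #1.

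Several lists of RNA and protein production had the same direction as mitosis, with medians near siControl with siADAR1 #1. Of 77 genes of the mitochondrial ribosome, 37 (48.1%) were higher with siADAR1 #1 and 2 with siADAR1 #2 (median -0.49). With siADAR1 #1 the median against siControl was -0.03, with 8 lowered, and with siADAR1 #2 it was -0.56, with 42 lowered. MRPS18B was at 5104 and 5003 with siADAR1 #1, 814 and 1015 with siADAR1 #2 and 3803 and 3509.7 with siControl. MRPL42 was at 3982 and 4272 with siADAR1 #1, 1403 and 1731 with siADAR1 #2 and 4452 and 4379 with siControl. Both fell with siADAR1 #2 alone, while MRPL10 and MRPS25 fell with siADAR1 #1 alone, MRPL10 at 723 and 968 with siADAR1 #1, 1719 and 1786 with siADAR1 #2 and 2021 and 1675 with siControl. Of 51 nuclear pore and transport genes, 22 were higher with siADAR1 #1 and 2 with siADAR1 #2 (median -0.44), led, by the smallest adjusted p, by the importin KPNA3, at 5436 and 5370.02 with siADAR1 #1, 854 and 1031 with siADAR1 #2 and 6268 and 5791 with siControl. Of 46 genes of ribosome biogenesis, 18 and 3 were (median -0.39), led by the RNA polymerase I factor RRN3 (-0.96 ± 0.12), and of 59 core spliceosome genes 19 and 3 (median -0.36).

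SF3B6, a spliceosome subunit at the branch point, was at 7487 and 7988 with siADAR1 #1, 1547 and 2081 with siADAR1 #2 and 6086 and 5858 with siControl. SNRPA1, of the U2 snRNP, was called on opposite sides, at 8739.9 and 8455 with siADAR1 #1, 2892 and 2183 with siADAR1 #2 and 3792 and 3602 with siControl. SNRPD2, a core Sm protein, was at 930.5 and 2022 with siADAR1 #1, 5885 and 6130.1 with siADAR1 #2 and 7845 and 7507 with siControl. It was called below siControl with siADAR1 #1 alone. Both siADAR1 #2 libraries also lay below siControl, without a call (log2 -0.35). Of 49 SR proteins and hnRNPs, 11 were higher with siADAR1 #1, led by HNRNPA3 (-1.26 ± 0.11) and SRSF9 (-1.20 ± 0.11), and 2 with siADAR1 #2 (median -0.13). By its median this list lay below siControl by similar amounts with both, -0.21 with siADAR1 #1 and -0.28 with siADAR1 #2. The proteasome had 10 of 35 higher with siADAR1 #1, led by PSMB5 (-1.34 ± 0.11), and 3 with siADAR1 #2 (median -0.23). Complex I of the respiratory chain had 15 of 48, led by NDUFB10 (-1.27 ± 0.14), and 2 (median -0.26).

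**Figure D4:**
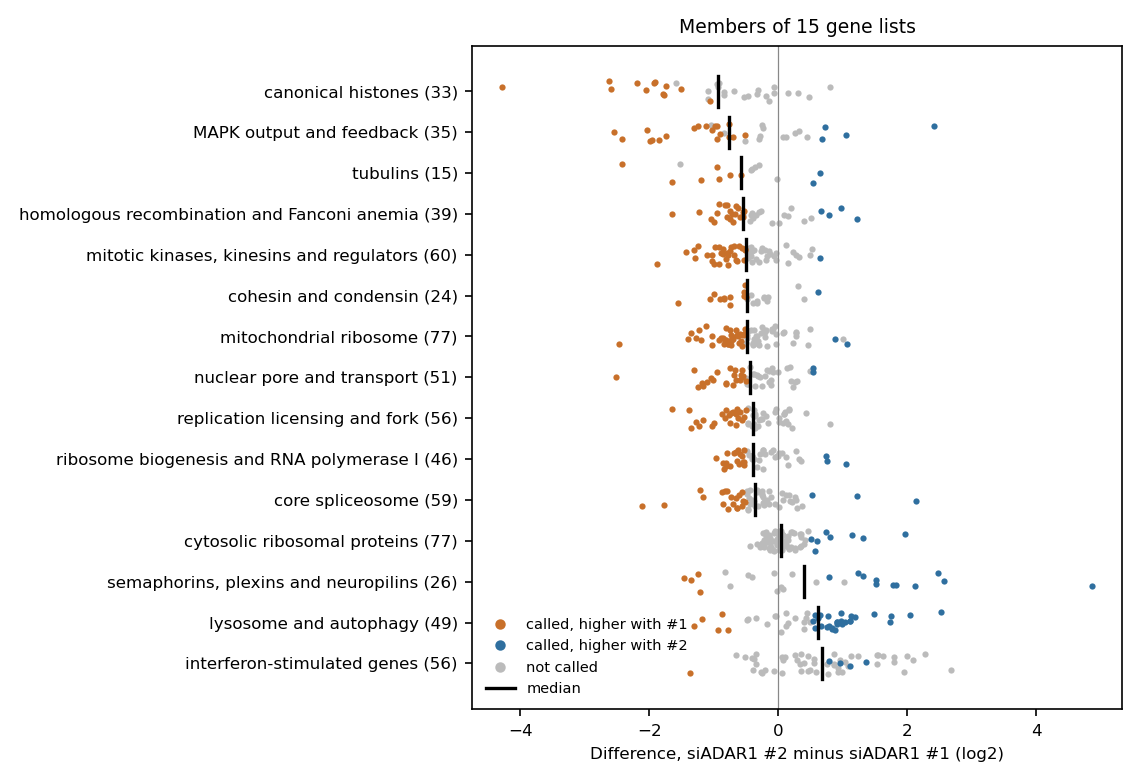
Log2 difference between the siRNAs (siADAR1 #2 minus siADAR1 #1, horizontal axis) of the tested members of 15 lists, with their number in brackets. Orange points were called higher with siADAR1 #1, blue points higher with siADAR1 #2 and grey points not called, and the black line is the median, which runs from -0.93 in canonical histones to 0.67 in interferon-stimulated genes.

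Cytosolic ribosomal proteins had 8 of 77 members (10.4%, against 16.7% of all genes) higher with siADAR1 #2 and 0 higher with siADAR1 #1 (4 at an unadjusted p under 0.05, 0 by voom; median 0.05, and -0.08 with libraries centred on their medians). The count of 8 was 4 without replicate 1 of either siRNA and 5 without replicate 2 of siADAR1 #2. RPL32 was at 14764 and 21290.4 with siADAR1 #1, 44198 and 43801 with siADAR1 #2 and 50937 and 43483 with siControl. RPS28 was at 3980.01 and 5455 with siADAR1 #1, 10419.8 and 10129 with siADAR1 #2 and 9448 and 7999.7 with siControl. For these members the siADAR1 #2 libraries lay near siControl and the siADAR1 #1 libraries below, replicate 1 the lower, and both have processed pseudogenes that may share their reads.

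Of 42 factors of translation initiation and elongation, 5 (11.9%) were higher with siADAR1 #2, 3 without its replicate 1, and 9 (21.4%) higher with siADAR1 #1, against 16.7% and 16.1% of all genes. EEF1G, of elongation factor 1, was at 31702 and 45510.1 with siADAR1 #1, 92023 and 85359.6 with siADAR1 #2 and 79879 and 68996 with siControl. EIF3C, of initiation factor 3, was at 9129 and 14101 with siADAR1 #1, 28547 and 28926 with siADAR1 #2 and 35499.5 and 28578 with siControl. In both, replicate 1 of siADAR1 #1 was the lowest of the 6 libraries. EIF4G2 (-1.76 ± 0.12) and EIF3J (-1.54 ± 0.12) were called the other way and were lower with siADAR1 #2.

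Genes that report MAPK signaling were mostly higher with siADAR1 #1. The MAPK pathway, which is often active in thyroid cancer, induces immediate early transcription factors and its own phosphatases and inhibitors. Of 35 such genes, 19 (54.3%) were higher with siADAR1 #1 and 4 (11.4%) with siADAR1 #2 (median -0.76), and 16 to 19 were higher with siADAR1 #1 as each library was left out, while the 4 higher with siADAR1 #2 were 2 without any 1 of the 4 siADAR1 libraries. With siADAR1 #1, 8 rose and 4 fell against siControl, and with siADAR1 #2, 3 rose and 12 fell. HBEGF, a ligand of the EGF receptor, was on opposite sides, at 5460.4 and 8471 with siADAR1 #1, 1304 and 1238 with siADAR1 #2 and 3257 and 3215 with siControl (log2 difference of -2.42 ± 0.19 (SE), adjusted p = 0.000201). Another ligand of that receptor, AREG, was called the other way, at 43 and 47.7 with siADAR1 #1, 269 and 237 with siADAR1 #2 and 40.3 and 34.7 with siControl (log2 difference of 2.42 ± 0.26 (SE), adjusted p = 0.000524), and so was the phosphatase DUSP4 (log2 difference of 1.05 ± 0.25 (SE), adjusted p = 0.0127). The receptor EGFR itself was below siControl with both siRNAs, and called so with siADAR1 #1 alone, at 7659 and 7940.1 with siADAR1 #1, 12019 and 13624 with siADAR1 #2 and 18973 and 16635 with siControl. MST1R, a receptor tyrosine kinase of macrophage-stimulating protein, was at 15 and 41.5 with siADAR1 #1, 764 and 483 with siADAR1 #2 and 50.1 and 41.8 with siControl.

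Of 35 targets of TGF-beta and YAP, 12 were higher with siADAR1 #1 and 8 with siADAR1 #2 (median -0.25). The receptor TGFBR1 was at 6398 and 4099 with siADAR1 #1, 719 and 836 with siADAR1 #2 and 3854 and 2505 with siControl. ANKRD1, a target of YAP, was at 1456 and 1077 with siADAR1 #1, 20402 and 10495 with siADAR1 #2 and 975 and 697 with siControl. The former fell and the latter rose with siADAR1 #2 alone, with log2 differences between the siRNAs of -2.72 and 3.54. Among Wnt and Notch genes, 13 of 45 were higher with siADAR1 #2 and 12 higher with siADAR1 #1. The count of 13 was 7 without replicate 2 of siADAR1 #2 and 8 without replicate 1 of any of the 3 groups. The Notch ligands DLL4 and DLL1 went opposite ways. DLL4 was at 100.1 and 94.2 with siADAR1 #1, 10.2 and 2.93 with siADAR1 #2 and 13.1 and 11.2 with siControl. DLL1 was at 53.3 and 35.2 with siADAR1 #1, 1049 and 429 with siADAR1 #2 and 6.53 and 4.08 with siControl. DLL4 rose with siADAR1 #1 alone, and DLL1 rose with both.

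Matrix, adhesion and guidance lists held genes called in each direction, beside 16.7% of all genes higher with siADAR1 #2 and 16.1% with siADAR1 #1. The collagens, with 22.7% and 18.2%, were near these shares. Of 26 semaphorins, plexins and neuropilins, 11 (42.3%) were higher with siADAR1 #2 and 4 with siADAR1 #1 (median 0.40). SEMA3C, a secreted semaphorin, was at 853 and 848 with siADAR1 #1, 4430.3 and 5078 with siADAR1 #2 and 922 and 962 with siControl. NRP2, a coreceptor of secreted semaphorins, was at 6177 and 6872 with siADAR1 #1, 2277 and 2829.9 with siADAR1 #2 and 6426 and 5554 with siControl. The ligand rose and the coreceptor fell with siADAR1 #2 alone. Of 28 integrins and laminins, 10 were higher with siADAR1 #2 and 3 (5 with the block) with siADAR1 #1 (median 0.19). The laminin chain LAMA4 was on opposite sides, at 134 and 167 with siADAR1 #1, 1876 and 1777 with siADAR1 #2 and 843 and 669 with siControl. ITGB3, a subunit of the vitronectin receptor, was below siControl with both, at 3181 and 4069 with siADAR1 #1, 1161 and 1394 with siADAR1 #2 and 5775 and 5221 with siControl. Of 28 matrix proteases and their inhibitors, 7 were higher with siADAR1 #2 and 1 with siADAR1 #1 (median 0.38). TIMP2, an inhibitor of matrix metalloproteases, led this list at 5137 and 6135 with siADAR1 #1, 27924 and 24292 with siADAR1 #2 and 11294 and 8025 with siControl, on opposite sides of siControl (log2 difference of 2.21 ± 0.18 (SE), adjusted p = 0.000201). Without replicate 1 of siADAR1 #2, 3 were called higher with siADAR1 #2. Of 22 collagens, 5 were higher with siADAR1 #2 and 4 (2 without replicate 1 of siADAR1 #2) with siADAR1 #1 (median 0.00), with COL18A1 low with siADAR1 #1 alone (1022 and 1375 with siADAR1 #1, 4827 and 4119 with siADAR1 #2 and 4076 and 3773 with siControl) and COL7A1 low with siADAR1 #2 alone (1278 and 929.5 with siADAR1 #1, 120.2 and 255 with siADAR1 #2 and 904 and 773 with siControl).

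Tubulins, the subunits of microtubules, had 7 of 15 higher with siADAR1 #1 and 2 with siADAR1 #2 (median -0.58). TUBB4B, an abundant beta-tubulin, fell with siADAR1 #2 alone, at 32897 and 37105 with siADAR1 #1, 18059 and 18170.5 with siADAR1 #2 and 39055 and 37497 with siControl. TUBB2B rose with siADAR1 #1 alone, at 210.4 and 193 with siADAR1 #1, 31.8 and 39.5 with siADAR1 #2 and 37 and 47.9 with siControl. Of 58 genes of the actin cytoskeleton and focal adhesions, 14 (24.1%, against 16.1% of all genes) were higher with siADAR1 #1 and 12 (20.7%, against 16.7%) with siADAR1 #2 (median -0.04). ACTG1, cytoplasmic gamma-actin, was at 180517 and 164522 with siADAR1 #1, 57101 and 52534 with siADAR1 #2 and 140943 and 129211 with siControl. The actin elongation factor VASP was at 8520.2 and 8489 with siADAR1 #1, 1797 and 1959.9 with siADAR1 #2 and 9207 and 7267 with siControl. Both fell with siADAR1 #2 alone, whereas the nonmuscle myosin MYH10 fell with siADAR1 #1 alone (8021 and 7329.6 with siADAR1 #1, 15185 and 14495 with siADAR1 #2 and 16569.8 and 15775 with siControl). ARPC1A, a subunit of the Arp2/3 complex, was at 1429.8 and 2336 with siADAR1 #1, 6437 and 6455 with siADAR1 #2 and 8766 and 8042 with siControl. It was called below siControl with siADAR1 #1 alone. Both siADAR1 #2 libraries also lay below siControl, without a call (log2 -0.38).

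Metabolic lists also held genes called in each direction, beside 16.7% of all genes higher with siADAR1 #2 and 16.1% with siADAR1 #1. Of 32 cholesterol genes, 15 were higher with siADAR1 #1 and 7 with siADAR1 #2 (median -0.32). CYP51A1 and SQLE, enzymes of cholesterol synthesis, were on opposite sides of siControl. CYP51A1 was at 10598 and 10775 with siADAR1 #1, 4023 and 4069 with siADAR1 #2 and 6691 and 6149 with siControl. SQLE was at 11412 and 11217 with siADAR1 #1, 4716 and 4243 with siADAR1 #2 and 7192 and 6037 with siControl. ABCA1, which exports cholesterol, was on opposite sides in the other direction, at 433 and 406 with siADAR1 #1, 6514 and 4876 with siADAR1 #2 and 1379 and 933 with siControl (log2 difference of 3.74 ± 0.21 (SE), adjusted p = 0.000109). SCD, the stearoyl-CoA desaturase, was at 54865 and 54013 with siADAR1 #1, 16790.3 and 19703 with siADAR1 #2 and 50508 and 40259 with siControl. LDHA, lactate dehydrogenase A, was at 55700.4 and 63168 with siADAR1 #1, 9634 and 15494 with siADAR1 #2 and 68353 and 63629 with siControl. Both fell with siADAR1 #2 alone. The list of NRF2 antioxidant genes had 7 of 28 (25%) higher with siADAR1 #1 and 6 (21.4%) with siADAR1 #2, not far above those shares (median 0.02, and -0.11 with libraries centred on their medians). NQO1, a quinone reductase and defining NRF2 target, was at 5308 and 5027 with siADAR1 #1, 1386 and 1362 with siADAR1 #2 and 4576 and 4415 with siControl. HMOX1, heme oxygenase, was at 228 and 264 with siADAR1 #1, 1682 and 1460.4 with siADAR1 #2 and 360.5 and 405 with siControl. These targets were called in opposite directions. FTH1, the ferritin heavy chain, whose processed pseudogenes may share its reads, was low with siADAR1 #1 alone, at 1377 and 4863 with siADAR1 #1, 26686 and 31708 with siADAR1 #2 and 31169.7 and 34364 with siControl.

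Caspases and the BCL2 family had 10 of 34 higher with siADAR1 #2 and 8 higher with siADAR1 #1 (median 0.19), and 5 were higher with siADAR1 #2 without replicate 1 of siADAR1 #1 and 6 without either library of siADAR1 #2. With libraries centred on their medians, 6 members of this list were higher with siADAR1 #2 and 10 higher with siADAR1 #1. CASP4, a sensor of bacterial lipopolysaccharide, lay on opposite sides of siControl, at 732 and 1339 with siADAR1 #1, 7663 and 7409 with siADAR1 #2 and 1957 and 2304 with siControl (log2 difference of 2.92 ± 0.25 (SE), adjusted p = 0.000246). Among genes of small RNA processing, 7 of 20 were higher with siADAR1 #1 and 3 with siADAR1 #2. DICER1, which cuts precursors of microRNAs, was at 4651 and 4135 with siADAR1 #1, 1682 and 1462 with siADAR1 #2 and 6555 and 5172 with siControl. It was called below siControl with siADAR1 #2 alone. Both siADAR1 #1 libraries also lay below siControl, without a call (log2 -0.41).

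Interferon-stimulated genes, which are induced by type I interferon, were the list whose replicates differed most by their median with each siADAR1 siRNA. Of 56 tested, 4 (7.14%) were higher with siADAR1 #2 and 1 (1.79%) higher with siADAR1 #1, below the shares of all genes, although the median difference was 0.67. By its median the list lay above siControl with both siRNAs. The median was 0.65 with siADAR1 #1, with 0 genes called, and 1.22 with siADAR1 #2, with 7 called higher and 0 lower. In every group replicate 2 lay above replicate 1: by a median of 1.76 with siADAR1 #1, 2.13 with siADAR1 #2 and 0.56 with siControl, against 0.04, 0.01 and -0.07 over all genes. All 56 genes were higher in replicate 2 of either siRNA, and 47 in replicate 2 of siControl. Within replicate numbers, siADAR1 #2 was above siADAR1 #1 by a median of 0.63 in replicates 1 and 0.87 in replicates 2, and 38 of 56 genes were higher with siADAR1 #2 in both. With the replicate number as a block, 23 genes were called higher with siADAR1 #2 and 1 higher with siADAR1 #1. Without a block and without replicate 1 of siADAR1 #1 the median was -0.39, and without replicate 2 of siADAR1 #1 it was 1.68, with 17 genes called higher with siADAR1 #2. That count was 9 without replicate 1 and 1 without replicate 2 of siADAR1 #2, and 2 without replicate 1 of siADAR1 #1 or either siControl library.

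The 5 genes called without the block were TRIM25, GBP3, LGALS3BP and STAT2, higher with siADAR1 #2, and IRF1, higher with siADAR1 #1. STAT2, a transcription factor of the interferon response, was at 1345 and 2912 with siADAR1 #1, 3618 and 7161 with siADAR1 #2 and 1492 and 1815 with siControl (log2 difference of 1.36 ± 0.40 (SE), adjusted p = 0.0295). IRF1, an interferon regulatory factor that NF-kappaB also induces, was at 2093 and 3442 with siADAR1 #1, 723 and 1482 with siADAR1 #2 and 1379.7 and 1186 with siControl (log2 difference of -1.37 ± 0.34 (SE), adjusted p = 0.0161). IFIT1, an abundant interferon-induced RNA-binding protein named here after its values were seen, was at 419 and 5016 with siADAR1 #1, 2261 and 16846 with siADAR1 #2 and 293 and 1253 with siControl. Each siADAR1 #2 library lay above the siADAR1 #1 library of the same number, yet replicate 2 of siADAR1 #1 lay above replicate 1 of siADAR1 #2, with a log2 difference of 2.09 ± 1.28 (SE), adjusted p = 0.244 and an adjusted p of 0.000856 with the block.

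**Figure D5:**
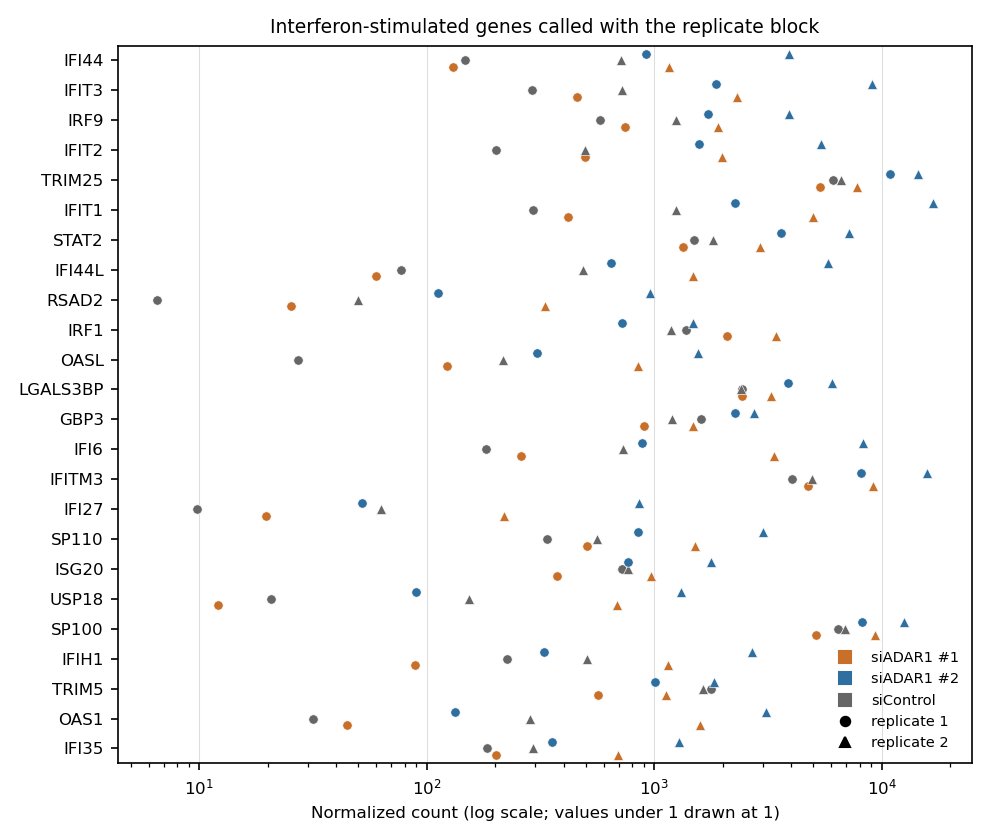
Normalized count on a log axis of the 24 interferon-stimulated genes called between the siRNAs with the replicate number as a block, with 1 point per library (colours and symbols as named in the key). Within each symbol, blue lies to the right of orange for 23 genes and to the left for IRF1, while triangles lie to the right of circles with either siRNA.

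Cytokines, chemokines and NF-kappaB genes shared this dependence on the replicate, with the median difference between the siRNAs in the other direction. By its median this list also lay above siControl with both siRNAs. The median was 0.80 with siADAR1 #1 (5 called higher and 1 lower) and 0.49 with siADAR1 #2 (4 higher and 2 lower). Of 36 tested, 7 (19.4%) were higher with siADAR1 #1 and 4 (11.1%) with siADAR1 #2, not far from the 16.1% and 16.7% of all genes. The median was -0.56, and it ran from -1.12 to -0.03 as each library was left out. With the block, 14 and 5 were called. The 7 were 4 without replicate 1 of siADAR1 #2 and 15 without replicate 1 of siADAR1 #1, and the 4 were 7 without replicate 2 of siADAR1 #1. Replicate 2 lay above replicate 1 by a median of 1.19 with siADAR1 #1 and 0.77 with siADAR1 #2. The chemokine CXCL16 rose with siADAR1 #1 alone, at 868 and 958 with siADAR1 #1, 282 and 451 with siADAR1 #2 and 387 and 347 with siControl (log2 difference of -1.35 ± 0.23 (SE), adjusted p = 0.00334). IL6 went against the list and against its relative IL11, at 58.9 and 86.7 with siADAR1 #1, 322 and 535 with siADAR1 #2 and 68.6 and 82.6 with siControl (log2 difference of 2.50 ± 0.32 (SE), adjusted p = 0.000977), and TNFSF15 was above siControl with both and highest with siADAR1 #2 (log2 difference of 2.56 ± 0.34 (SE), adjusted p = 0.00111). Of 20 genes of MHC class I presentation, 3, among them HLA-B, were higher with siADAR1 #1 and 1, CALR, with siADAR1 #2, and 5 and 4 with the block. As each library was left out, the 3 ran from 0, without replicate 2 of siADAR1 #1, to 7, and the median from -0.60 to 0.26. Among sensors of double-stranded RNA and editing deaminases, 6 of 26 (23.1%) were higher with siADAR1 #1 and 2 (7.69%) with siADAR1 #2, and 6 and 6 with the block. Of all genes, 16.1% and 16.7% were. The median difference was 0.26, toward siADAR1 #2 and against the calls, with 16 members above 0 and 10 below. Without replicate 2 of siADAR1 #1 the count of 6 was 3, and the median ran from -0.47 to 0.79. The adaptor MAVS of the RIG-I pathway fell with siADAR1 #2 alone, at 11118 and 11271 with siADAR1 #1, 5223 and 6079 with siADAR1 #2 and 12243 and 12241 with siControl.

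The genes that the study tested by qPCR, chosen on these samples and so no independent evidence, were checked too. Of 17, 1 (3 with the block) was called between the siRNAs, CDK6, at 9547 and 8262 with siADAR1 #1, 6128 and 5503 with siADAR1 #2 and 22258 and 14902 with siControl, below siControl with both and lower with siADAR1 #2 (log2 difference of -0.61 ± 0.19 (SE), adjusted p = 0.0352). The other 16 had log2 differences between -0.85 and 0.18. All 17 were called against siControl with each siRNA, 14 lower and 3 higher with both.

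The labelled cell type was checked against markers. Epithelial keratins were abundant: KRT18 was at 61379 and 59432 with siADAR1 #1, 25217 and 23116 with siADAR1 #2 and 48692 and 38662 with siControl. KRT19 was at 3194 and 3453 with siADAR1 #1, 7147 and 6164 with siADAR1 #2 and 2887 and 2952 with siControl. They were called in opposite directions between the siRNAs. The epithelial markers KRT8 (log2 difference of 0.04) and EPCAM (0.15) were not called. CDH1, of the same marker set, was low and not called. It was at 49.6 and 52.8 with siADAR1 #1, 196 and 36.6 with siADAR1 #2 and 210 and 39.8 with siControl. PAX8, a transcription factor of the thyroid lineage, was at 10272 and 15074 with siADAR1 #1, 2542 and 5484 with siADAR1 #2 and 13927 and 15868 with siControl and fell with siADAR1 #2 alone (log2 difference of -1.74 ± 0.33 (SE), adjusted p = 0.00504). Other thyroid markers were low, with TG at 0 to 62.4 normalized counts over the 6 libraries and NKX2-1 at 0 in all 6. TSHR was called the other way from PAX8 (log2 difference of 0.96, adjusted p = 0.0352). It was at 61.7 and 41.5 with siADAR1 #1, 95.3 and 107 with siADAR1 #2 and 70.8 and 73.4 with siControl. Of 14 genes of the thyroid lineage list, 3 were higher with siADAR1 #2 and 1 higher with siADAR1 #1. Markers of other cell types summed to at most 134 normalized counts for leukocytes, 69.7 for endothelium, 26.4 for fibroblasts and 204 for neurons in any library. Of these, CD14, a monocyte receptor, and SNAP25, a protein of synaptic release, were called higher with siADAR1 #1. CD14 had a log2 difference of -2.07 ± 0.32 (SE), adjusted p = 0.00192, and SNAP25 a log2 difference of -3.35 ± 0.32 (SE), adjusted p = 0.000357. Their part in the results was not tested.

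The remaining lists are given by their counts, beside 16.7% and 16.1% of all genes. ZNF genes had 59 of 444 higher with siADAR1 #2 and 51 higher with siADAR1 #1, and without replicate 1 of siADAR1 #2 40 and 27. They included ZNF275, on opposite sides of siControl, at 3002 and 2829 with siADAR1 #1, 560.2 and 568 with siADAR1 #2 and 1976 and 1797 with siControl. ZNF469 fell with siADAR1 #1 alone, at 49.6 and 52.8 with siADAR1 #1, 441 and 404 with siADAR1 #2 and 404 and 324 with siControl. Counts of members higher with siADAR1 #2 and with siADAR1 #1 were, in that order, 7 and 3 of 38 ATF4 targets, 9 and 4 of 33 p53 targets, 5 and 7 of 33 genes of the unfolded protein response, 2 and 6 of 31 heat shock proteins, and 4 and 9 of 29 hypoxia-responsive genes. With libraries centred on their medians, these were 4 and 9 ATF4 targets, 6 and 7 p53 targets and 2 and 7 genes of the unfolded protein response. Heat shock proteins were then 1 and 9 and hypoxia-responsive genes 3 and 10. After quantile normalization, heat shock proteins were 2 and 1. Many of the counts on the deposited scale moved by over 1.5 times as 1 library was left out. Without replicate 1 of siADAR1 #2, ATF4 targets had 4 higher with siADAR1 #2, p53 targets 5 and 1, the unfolded protein response 2 higher with siADAR1 #2, heat shock proteins 3 higher with siADAR1 #1 and hypoxia-responsive genes 2 higher with siADAR1 #2. Without its replicate 2, p53 targets had 3 higher with siADAR1 #2, the unfolded protein response 3 higher with siADAR1 #1, and hypoxia-responsive genes 1 and 5. In siADAR1 #1, leaving out replicate 1 gave 4 p53 targets and 3 genes of the unfolded protein response higher with siADAR1 #2, and leaving out replicate 2 gave 2 p53 targets higher with siADAR1 #1. Counts in the same order were 2 and 5 of 26 fatty acid genes (the 5 were 8 without replicate 1 of siADAR1 #1, and 3 without its replicate 2 or replicate 1 of siADAR1 #2), 2 and 7 of 21 glycolysis genes, 3 and 7 of 38 genes of complexes II to V, 0 and 0 of 13 mitochondrially encoded genes, 6 and 1 of 37 aminoacyl-tRNA synthetases and 8 and 7 of 40 genes of the COP coats and the Golgi. They were 5 and 9 of 32 receptor tyrosine kinases (3 without replicate 2 of siADAR1 #2, and 4 without replicate 1 of siADAR1 #1), 6 and 6 of 27 genes of epithelial and mesenchymal state, 2 and 2 of 23 HOX genes, 11 and 25 of 77 chromatin modifiers, 4 and 1 of 25 transcriptional kinases and cyclins, 1 and 3 of 25 snoRNA host genes and 1 and 2 of 18 cell-type splicing regulators. For mitochondrially encoded genes the median was 0.37, without a call in the limma fit of the deposited values with or without the block. Higher with siADAR1 #2 were 4 at an unadjusted p under 0.05 and 1 by voom. After quantile normalization 5 were called higher with siADAR1 #2, and 4 with the trend on GC content and length removed. With libraries centred on their medians 0 were called. Counts of 3 or fewer members in any list moved by at most 4 as each library was left out.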

How the data were processed

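RNA was measured in Cal62 cells transfected with siControl, siADAR1 #1 or siADAR1 #2, with 2 biological replicates each, by 75-bp paired-end sequencing of poly(A)+ RNA. Per the study's methods, the authors ran bcbio-nextgen, with FastQC for read quality, Atropos for trimming, featureCounts for counts per gene and, in parallel, Salmon, and normalized per gene with DESeq2, preferring gene counts that Tximport derived from Salmon. The submitters' processing notes name GRCh38, and which counts underlie the deposited values was not given in the sources used here. The deposited values are on a log2 scale, variance-stabilized as judged from the values, for 58333 Ensembl genes, and were not raw counts. The form of the values was inverted to give reads, and all came out whole within 0.1 of a read. Normalized counts are these reads divided by each library's size factor.

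The log2 values of 20858 genes with a mean of at least log2 of 10 were fitted with limma 3.58.1 (R 4.3.3; lmFit, eBayes with a trend) over 3 groups, and p-values, two-sided, were adjusted by Benjamini-Hochberg over these genes. With 2 libraries a group, p-values measure only the spread between these libraries. Over all genes tested, same-numbered replicates deviated together only weakly, with correlations of the replicate differences of 0.106, 0.11 and 0.162 between groups. The fit with the replicate number as a block is given where it changes a result. This pairing comes from the data and the column numbers, since no source says what a number shares.

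The text names ADAR, the 12 protein-coding genes with the largest called difference in each direction and the 5 on opposite sides of siControl in each direction (at least 100 normalized counts on average and ranges that do not overlap), up to 2 members of each list and direction with the smallest adjusted p, the 3 largest long noncoding genes in each direction, the genes of the study's qPCR panel and cell type markers. Other genes were named after their values were seen: TFE3, CTSD, GABARAP, CTSL, ATG3, ATG16L1, the genes whose promoters are shown and IFIT1. The 55 lists, the members and the motifs were chosen with earlier results of these data known. Gene names, GC content and lengths came from GENCODE 44, which held 57830 of the genes, and promoters from RefSeq. The scripts were tested on simulated data, and 18 alternatives were run. Some results of the naming rule are not reported here.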

Additional observations from a re-analysis of the deposited data

How the results depend on the processing

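Over the 18 alternatives, between 4616 and 6803 of the 6838 genes called between the siRNAs kept their call and direction, the fewest without replicate 1 of siADAR1 #2, and 0 were called in the other direction. Of the 137 genes named with a test, 115 besides ADAR kept their call or its absence under every alternative. The side of siControl was less stable. With eBayes without a trend, 1347 genes were called between siADAR1 #1 and siControl, and siADAR1 #1 alone held 710 genes, opposite sides 102 and the same side 70. With no filter on low values, opposite sides held 199 genes and the same side 110. With the replicate number as a block, 7275 genes were called between the siRNAs and the same side held 357, and beyond the counts given with it the block moved no count of 4 or more genes by over 1.5 times. As each library was left out, calls ran from 392 to 3680 between siADAR1 #1 and siControl and from 3150 to 5758 between siADAR1 #2 and siControl, and from 4810 to 6360 between the siRNAs. Genes ran from 229 to 1661 for siADAR1 #1 alone, 1773 to 3165 for siADAR1 #2 alone, 29 to 403 for opposite sides, 32 to 271 for the same side and 1301 to 3801 for no call with either. The cause was not tested. The ADAR difference ran from -0.054 (without replicate 2 of siADAR1 #2) through -0.025 (without replicate 1 of siADAR1 #1) to 0.761, with no call. An arm left with 1 library was assumed to vary like the others. Differences in genes with few reads are limited by depth, and 2 libraries a group limit all others.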
